A study of Drosophila melanogaster with 9 samples.

Results

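The proteasome subunit genes of Drosophila melanogaster are the 32 genes whose symbols begin with Prosalpha, Prosbeta, Rpt or Rpn followed by a number. Paralogues with T or R after the number were left out. The 32 genes were found among 17187 genes and unnamed entries in the count tables by their symbols. By place in the complex they comprise 7 alpha-ring genes, 7 beta-ring genes, 6 base ATPase genes, 4 base genes without ATPase activity and 8 lid genes.

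RNA was sequenced from whole larvae of 3 genotypes grown at 28 °C, with 3 libraries per genotype and 20 pooled larvae per library. The genotypes were w[1118], a white-eyed laboratory strain taken here as the control, hop[Tum], a strain with a gain-of-function allele of hopscotch, the fly JAK kinase, and tuSz[1], a mutant strain in which blood cells attack the animal's own tissue. All 3 are whole strains with no tissue-specific driver named in the labels, so a difference between them cannot be credited to a single gene. Larval age and sex are not given in the sources used here. In whole larvae, fewer cells of a type and less RNA per cell cannot be told apart. Total counts ran from 9552828 to 14517286 per library, and values are given on the counts-per-million (CPM) scale with library sizes adjusted by TMM, a scaling that assumes most genes do not differ.

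The proteasome degrades proteins tagged with ubiquitin. Its barrel-shaped core particle is built of outer alpha rings, which gate entry, and inner beta rings, which hold the cutting sites. The regulatory particle caps the barrel: a base with a ring of ATPases unfolds and threads the substrate, and a lid removes the ubiquitin chain. In flies, as in mammals, the subunit genes can be induced together by the transcription factor cnc, the fly Nrf protein, when proteasome activity is impaired.

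Which of the 32 genes could be measured followed the number of transcripts listed for them. The 17 genes with 1 listed transcript had 53365 to 118012 counts each over the 9 libraries, and no library held fewer than 2457 counts of any of them. The 15 genes with 2 or more listed transcripts had at most 828 counts each. Prosalpha1, Prosalpha6, Prosbeta4, Prosbeta5, Rpn2, Rpn10 and Rpn13 were listed at 0 in every library. Prosbeta5 carries the chymotrypsin-like cutting site, Rpn10 and Rpn13 are ubiquitin receptors, and Rpn2 is the scaffold of the base. The other 8 were not evenly counted either. Prosalpha5, Prosbeta7, Rpt2, Rpt3, Rpn3, Rpn8 and Rpn9 had 3 to 24 counts in all and at most 6 in any library. Rpn6, a lid scaffold, had 828 counts, of which 822 fell on 1 of its 3 transcripts. Of all 32 genes, 9 had at most 3 counts in every library.

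In the Ensembl annotation of the same genome build, between 0 and 440 exonic bases of each of the 15 genes belonged to exactly 1 transcript, of 815 to 3412 exonic bases in all. For the 17 genes with 1 transcript all 852 to 3041 exonic bases did. The 2 classes were thus separate on both axes of the plot of counts against countable bases. How reads that overlap several transcripts were assigned is not given in the sources used here, and its part in these values was not tested. A gene listed at 0 is therefore not described as unexpressed, and 18 genes, the 17 and Rpn6, passed the filter on low counts and were tested. Of the 17, 8 were overlapped by a gene on the opposite strand, over at most 182 bases. The strand setting of the counting is not given, so those bases cannot be assigned to a strand.

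**Figure D1:**
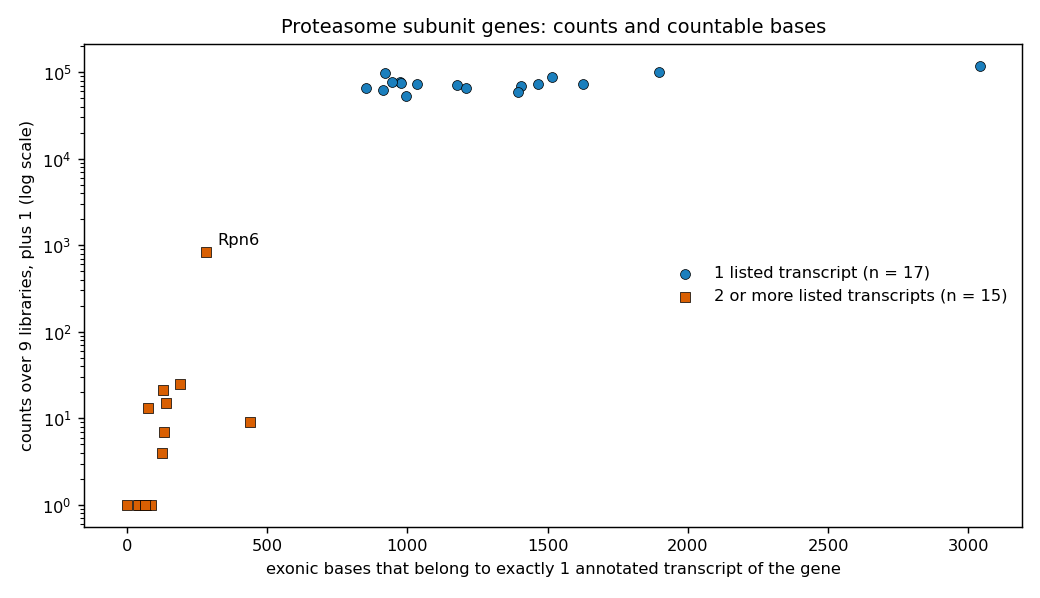
Counts of each of the 32 proteasome subunit genes over 9 libraries plus 1 (vertical axis, log scale) against exonic bases that belong to exactly 1 annotated transcript of the gene (horizontal axis, bases). The 17 genes with 1 listed transcript lie at or above 53365 counts, and the 15 others lie at or below 828.

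The 17 measured genes were expressed at similar levels per length, and core-particle genes lay above most regulatory-particle genes. As mean CPM per kilobase of exon over the 9 libraries, the range ran from 365 for Rpn1 to 995 for Prosalpha2, a 2.73-fold range. The 8 core genes had a median level of 737 CPM per kilobase and the 9 regulatory genes one of 472. In the alpha ring the lowest was Prosalpha4 at 570 CPM per kilobase and the highest Prosalpha2. In the beta ring the levels ran from 632 for Prosbeta3 to 754 for Prosbeta6. Among the base ATPases they ran from 408 for Rpt5 to 547 for Rpt1, and in the lid from 398 for Rpn7 to 512 for Rpn11. In tuSz[1] every core gene, with a lowest mean of 408 CPM per kilobase, lay above every regulatory gene, with a highest mean of 384. In w[1118] and in hop[Tum] the separation held but for 1 core gene, Prosalpha4, which lay under the highest regulatory gene, Rpn5 in w[1118] and Rpt1 in hop[Tum], where both stood at 652. Core transcripts are also mostly shorter, and counts per kilobase can depend on length.

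The measured proteasome genes had lower levels in tuSz[1] than in w[1118]. All 18 tested genes had a fitted log2 fold change below 0, as did 46.1% of all 9106 tested genes. Their median was -0.78 against 0.08 over all tested genes. For 17 of the 18, every tuSz[1] library lay below every w[1118] library, which holds for 17.1% of all tested genes. Only Prosbeta2, Rpt4 and Rpn5 fell at an adjusted p-value under 0.05 (edgeR quasi-likelihood test, Benjamini-Hochberg adjustment), 3 of 18, where 6.33% of all tested genes fell. At an unadjusted p under 0.05, 13 of 18 were lower, where 12.3% of all tested genes were. The 17 genes with 1 transcript summed to 13457, 13164 and 15876 CPM in w[1118] and to 8735, 9070 and 7997 CPM in tuSz[1], means of 14166 ± 1489 and 8601 ± 549 CPM (SD, n = 3). Every tuSz[1] sum lay below every w[1118] sum.

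**Figure D2:**
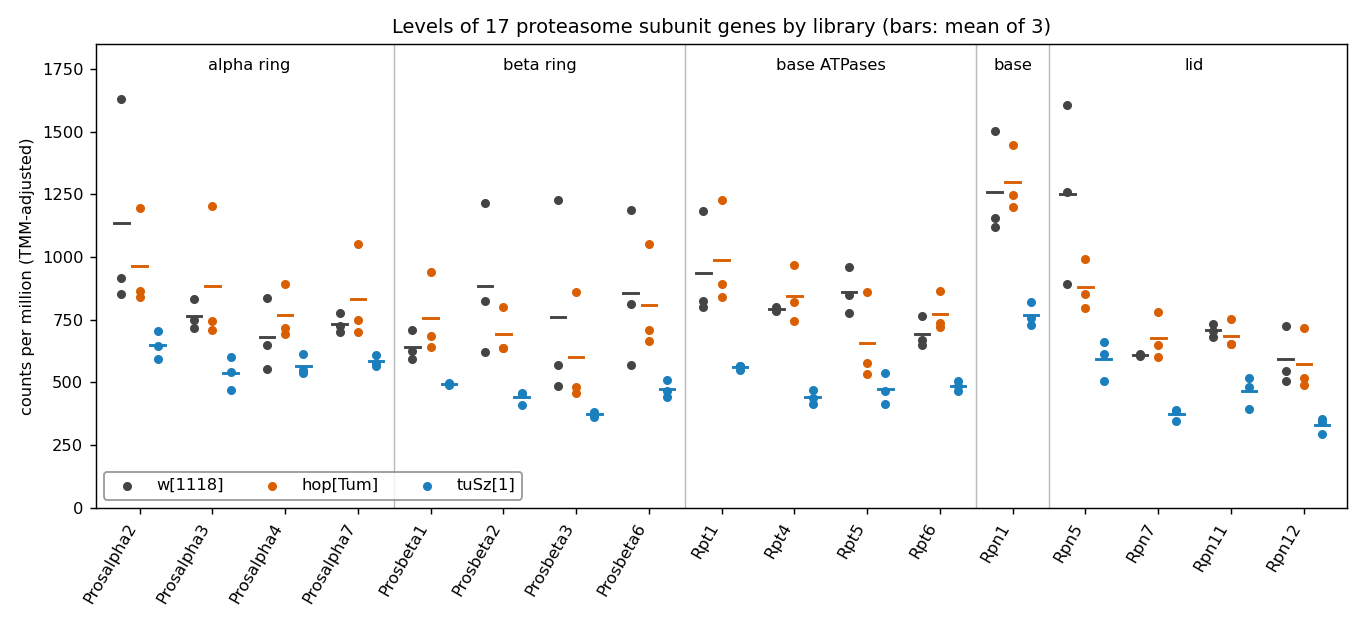
Levels (CPM, TMM-adjusted, vertical axis) of the 17 measured proteasome subunit genes in each of 9 libraries, by genotype, with bars at the mean of 3 libraries. In 16 of the 17 panels of points the 3 tuSz[1] libraries lie below all 3 w[1118] libraries; the exception is Prosalpha4.

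In the beta ring, Prosbeta2 carries the trypsin-like cutting site. It lies on chromosome arm 3L at 14999951 to 15001319 (dm6, plus strand). Its level was 619.8, 823 and 1214 CPM in w[1118] and 458.5, 452 and 411 CPM in tuSz[1]. The w[1118] libraries were far apart while the tuSz[1] libraries were close together, and the groups did not overlap. The log2 fold change was -1.01 (SE 0.30, adjusted p = 0.0420, edgeR). Prosbeta1, with the caspase-like site, was at 709, 624 and 595 CPM in w[1118] and at 496, 489 and 494 CPM in tuSz[1]. Here too the groups did not overlap, but the log2 fold change of -0.38 (SE 0.27) did not pass the test (adjusted p = 0.382, edgeR). The third cutting subunit, Prosbeta5, was listed at 0. Prosbeta3 and Prosbeta6, structural subunits, did not pass either, at -1.03 (SE 0.39) and -0.86 (SE 0.33) on the log2 scale. Prosbeta3 was at 486, 568 and 1229 CPM in w[1118] against 371, 383 and 363 CPM in tuSz[1]. Prosbeta6 was at 569.9, 812 and 1188 CPM against 509.6, 464 and 443 CPM. The third w[1118] library was the high value in both. The 4 measured beta genes had a median log2 fold change of -0.93.

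In the alpha ring no measured gene passed the test, and the median log2 fold change of the 4 was -0.42. Prosalpha2, the highest per length of the 17 measured genes, was at 852, 918 and 1632 CPM in w[1118] and at 643.5, 703 and 595 CPM in tuSz[1]. The groups did not overlap, and the log2 fold change was -0.81 (SE 0.33, adjusted p = 0.113, edgeR). Prosalpha4 was the 1 tested member whose groups overlapped, with 838, 648 and 553 CPM against 549.6, 611 and 535 CPM. Its log2 fold change of -0.27 (SE 0.27) was the smallest of all 18. Prosalpha3 and Prosalpha7 had log2 fold changes of -0.51 and -0.33.

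Among the base ATPases, which drive unfolding, Rpt4 fell. Rpt4 lies on the X chromosome at 6289470 to 6291245 (dm6, minus strand). Its level was 786, 801 and 789 CPM in w[1118] and 470.0, 437 and 414 CPM in tuSz[1]. The w[1118] libraries were nearly equal and each was well above every tuSz[1] library (log2 fold change -0.85, SE 0.26, adjusted p = 0.0421, edgeR). Rpt1 was at 1185, 799 and 825 CPM against 566, 564 and 551 CPM, and Rpt5 at 778, 849 and 959.7 CPM against 464, 539 and 415 CPM. Neither passed the test: the fit gave Rpt1 -0.74 (SE 0.29, adjusted p = 0.104) and Rpt5 -0.87 (SE 0.29, adjusted p = 0.0588) on the log2 scale by edgeR. The median of the 4 measured ATPase genes was -0.79. Rpn1, the base subunit that docks ubiquitin shuttle proteins, was at 1505, 1157 and 1120.2 CPM against 759, 820.3 and 728 CPM. Its log2 fold change of -0.71 (SE 0.27) did not pass (adjusted p = 0.0988, edgeR).

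In the lid, Rpn5 fell. Rpn5 is a scaffold subunit whose gene lies on chromosome arm 3R at 5789493 to 5791569 (dm6, plus strand). Its level was 893, 1259 and 1607 CPM in w[1118] and 615, 661 and 506 CPM in tuSz[1]. The groups did not overlap although the w[1118] libraries were widely spread, and the log2 fold change was -1.08 (SE 0.30, adjusted p = 0.0311, edgeR). Rpn11, the enzyme that removes ubiquitin chains, was at 706, 683 and 733 CPM against 479.6, 519 and 392 CPM. Rpn7 was at 615, 606 and 611 CPM against 391, 387 and 344 CPM. The groups of neither gene overlapped. The w[1118] libraries were close together for both genes, while Rpn11 had the widest spread in tuSz[1] of the 17 genes. The log2 fold changes were -0.61 (SE 0.26) for Rpn11 and -0.71 (SE 0.25) for Rpn7, and neither passed (adjusted p = 0.127 and 0.0745, edgeR). The median of the 5 tested lid genes was -0.85, and that of the 4 with 1 listed transcript was -0.78. Rpn6, with few counts, was at 12.3, 14.47 and 8.83 CPM in w[1118] against 4.85, 5.77 and 4.29 CPM in tuSz[1]. The fitted difference was -1.25 on the log2 scale (SE 0.40, adjusted p = 0.0535, edgeR).

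The direction held more firmly than the calls. Over 17 other settings in which each gene was refitted, all 306 values of the 18 genes in tuSz[1] against w[1118] were below 0. These refits reuse the same libraries and are not independent checks. For 17 of the 18 genes the groups did not overlap, so a change of sign was unlikely from the start. Relative to the median of all genes, the median of the 18 genes lay between -0.93 and -0.72 in all 18 alternative settings. The 3 calls were all lost without w[1118] replicate 2, without w[1118] replicate 3 and without each of the tuSz[1] replicates in turn, where 0 genes were called. Under scaling to total counts all 18 genes were called lower, where 19.2% of all tested genes were. That scaling moved the median of all tested genes from 0.08 to -0.70 and the share of called genes that were higher in tuSz[1] from 61.2% to 19.8%. The proteasome median relative to all genes was -0.85 under both scalings. As a share of all counts with no such scaling, the 32 genes took 1.87% ± 0.223 in w[1118], 1.37% ± 0.142 in hop[Tum] and 0.664% ± 0.174 in tuSz[1] (SD, n = 3).

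**Figure D3:**
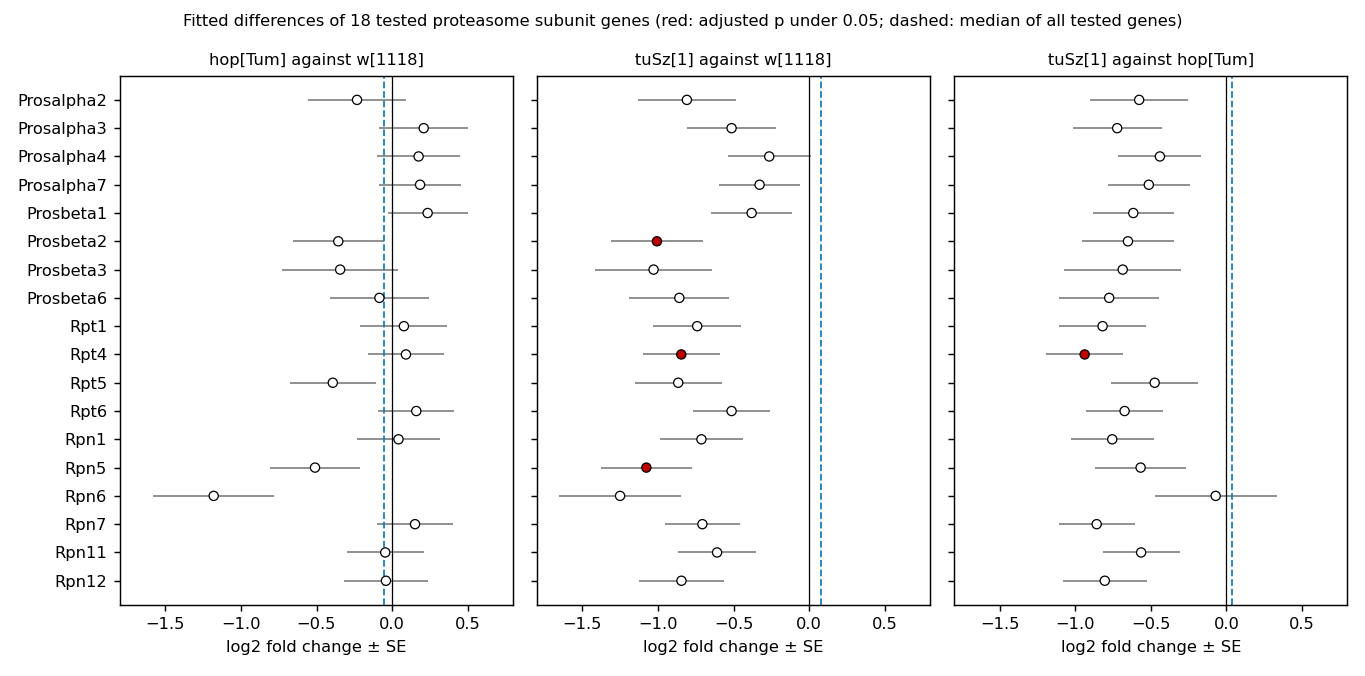
Fitted log2 fold changes with standard errors (horizontal axis) of the 18 tested proteasome subunit genes in the 3 comparisons, red where the adjusted p is under 0.05, with a dashed line at the median of all 9106 tested genes. All 18 points lie below 0 in both tuSz[1] panels, and 9 of 18 do in the hop[Tum] panel.

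Against the same w[1118] libraries, hop[Tum] showed no such shift on the TMM scale. The comparisons share their control libraries, so their values are given side by side. No proteasome gene was called in hop[Tum] against w[1118], 0 of 18 where 18.1% of all tested genes were called (edgeR quasi-likelihood test). 1 gene, Rpn6, was lower at an unadjusted p under 0.05, where 13.9% of all tested genes were, and the DESeq2 Wald test called 1, the same gene. The median log2 fold change was 0.00038 against -0.05 over all genes, with 9 of 18 genes below 0, where 51.9% of all tested genes were. Prosbeta2 was at 637, 801 and 637 CPM in hop[Tum], a log2 fold change of -0.36 (SE 0.30). Prosbeta1 was at 642, 941 and 684 CPM, with 0.23 (SE 0.27). Both overlapped w[1118]. Rpt4, at 820.5, 967 and 743 CPM, had a log2 fold change of 0.09 (SE 0.25), and Rpn5, at 795, 992 and 853 CPM, one of -0.51 (SE 0.30). Rpn1 was at 1248, 1448 and 1198 CPM, which gave 0.04 (SE 0.27). Rpn6 was the only member whose hop[Tum] libraries, at 3.98, 3.95 and 7.73 CPM, all lay below those of w[1118], where 18.6% of all tested genes did so. Its log2 fold change was -1.18 (SE 0.40, adjusted p = 0.0621, edgeR). Standard errors of the 18 values ran from 0.25 to 0.40. Differences of this size could not be resolved, and larger ones need not pass. Rpn5, at -0.51, did not (adjusted p = 0.265, edgeR). Scaling to total counts moved the hop[Tum] median to -0.38 with that of all genes at -0.41. As a share of all counts, every hop[Tum] library, with 1.21% to 1.46%, lay below every w[1118] library, with 1.68% to 2.11%.

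Set directly against hop[Tum], tuSz[1] was again lower. All 18 genes had values below 0, against 48.4% of all tested genes, with a median of -0.66 where that of all genes was 0.03. In 16 of 18 the tuSz[1] libraries all lay below the hop[Tum] libraries, against 15.5% of all tested genes. The exceptions were Rpt5, at 534, 859 and 577 CPM in hop[Tum], and Rpn6. Rpn6 lay nearest to 0, at -0.07 (SE 0.40, adjusted p = 0.933, edgeR). Over the 17 other settings, which reuse the same libraries, 304 of 306 values were below 0, and the highest was 0.26 for Rpn6. Only Rpt4 fell at an adjusted p under 0.05 (log2 fold change -0.94, SE 0.26, adjusted p = 0.0399, edgeR), 1 of 18 where 4.14% of all genes fell. At an unadjusted p under 0.05, 10 of 18 were lower, where 11.5% of all tested genes were. The Rpt4 call was lost in 7 of the 9 fits that left out 1 library: without w[1118] replicate 2 and without each hop[Tum] and each tuSz[1] replicate. By place in the complex the medians were -0.55 for the alpha ring, -0.67 for the beta ring, -0.75 for the base ATPases and -0.57 for the lid, with Rpn1 at -0.76. The lid median takes in Rpn6, and over the 4 lid genes with 1 listed transcript it was -0.69. The largest value after Rpt4 was that of Rpn7, at 651, 782 and 602 CPM in hop[Tum], with -0.86 (SE 0.25, adjusted p = 0.0517, edgeR).

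The spread between libraries differed among the genotypes. The median SD of log2 CPM over the 17 genes was 0.101 in tuSz[1], 0.233 in w[1118] and 0.283 in hop[Tum]. In hop[Tum], replicate 2 was the highest library for all 17 genes, by 1.15- to 1.83-fold over the mean of the other libraries, with a median of 1.40-fold. In w[1118] the genes split. Replicate 3 exceeded replicate 1 by more than 1.1-fold in 7 genes, Prosbeta3, Prosbeta6, Prosbeta2, Prosalpha2, Rpn5, Rpn12 and Rpt5, with ratios up to 2.53 in Prosbeta3. All 7 lie on chromosome 3, which holds 9 of the 17 genes. The other chromosome 3 genes, Rpn7 and Rpn1, had ratios of 0.993 and 0.744, and the 8 genes elsewhere had ratios of 0.660 to 1.04. Over all genes of at least 20 CPM the median ratio was 1.04 on arm 2L, 0.983 on 2R, 1.03 on 3L, 0.956 on 3R and 0.775 on X. Of the 8 genes elsewhere, Prosalpha4, Rpt6 and Rpt4 lie on X, with ratios of 0.660, 0.847 and 1.00. This split was seen after the values were examined and was not tested. It bears on the calls: Prosbeta2 and Rpn5 are among the 7 genes, while Rpt4 is not. Without w[1118] replicate 3 the fitted log2 difference of Prosbeta2 in tuSz[1] was -0.71 (adjusted p = 0.144, edgeR), that of Rpn5 was -0.86 (adjusted p = 0.0999, edgeR) and that of Rpt4 was -0.85 (adjusted p = 0.0762, edgeR).

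**Figure D4:**
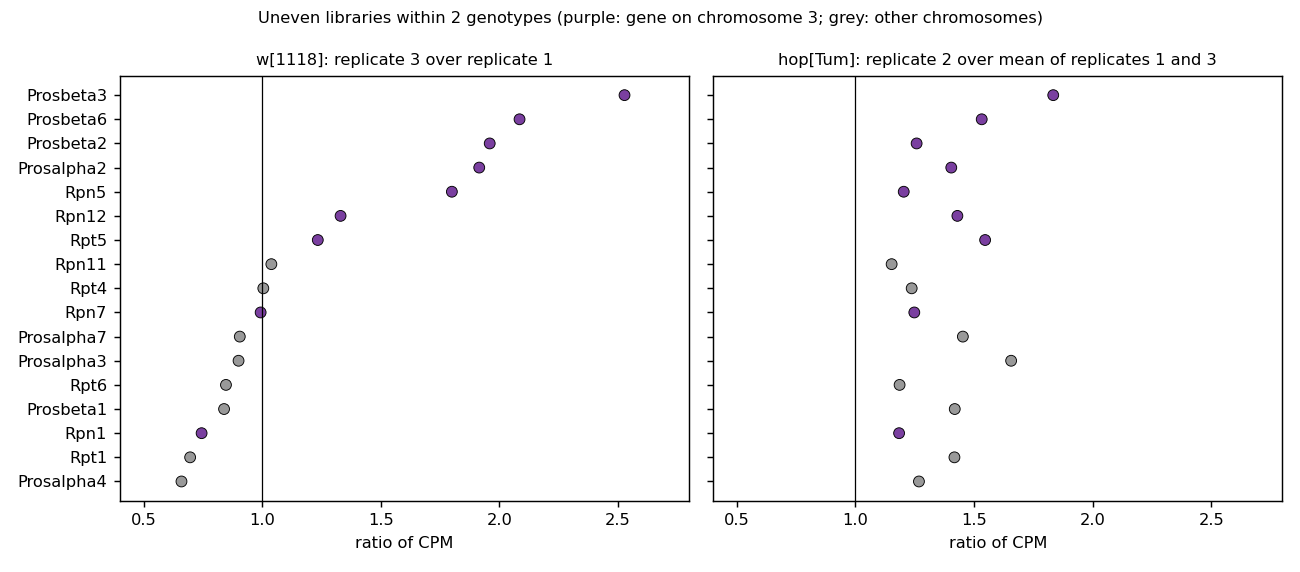
Ratio of CPM between libraries of the same genotype for the 17 measured proteasome subunit genes, w[1118] replicate 3 over replicate 1 (left) and hop[Tum] replicate 2 over the mean of replicates 1 and 3 (right), with genes on chromosome 3 in purple. On the left the 7 genes above 1.1 are all on chromosome 3; on the right all 17 genes lie above 1.

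The CCT chaperonin and the ribosome are other abundant complexes of many subunits. CCT folds actin and tubulin, and 6 of its 8 genes were tested. In hop[Tum] against w[1118] all 6 CCT genes rose, where 11.5% of all tested genes rose, with a median log2 fold change of 1.97. CCT7 gave 2.08 (SE 0.32, adjusted p = 0.00107, edgeR). In tuSz[1] against w[1118] 0 of the 6 passed the test, where 9.98% of all tested genes rose. At an unadjusted p under 0.05, 5 of the 6 were higher, where 18.1% of all tested genes were, and the median was 0.86. In tuSz[1] against hop[Tum], CCT5 and CCT7 fell, by 1.08 and 1.21 on the log2 scale, 2 of 6 where 4.14% of all tested genes fell, and the median was -1.07. For cytosolic ribosomal proteins, 52 of 88 genes were tested. The medians were 0.55 in hop[Tum] against w[1118], 0.32 in tuSz[1] against w[1118] and -0.26 in tuSz[1] against hop[Tum]. For the 22 of them with 1 listed transcript the medians were 0.70, 0.42 and -0.22 in the same order. Unlike in the proteasome list, paralogues and genes named -like were kept in the ribosomal list. Among the 22 these were RpL10Aa, RpL22-like, RpL24-like, RpL37-2, RpS10a, RpS15Ab, RpS28-like and RpS28a. They had at most 33682 counts each over the 9 libraries, and the rest of the 22 had at least 265624. The part of these genes in the medians was not tested. In hop[Tum] against w[1118], 4 of the 52 rose (RpL22, RpL24-like, RpL4 and RpS23), where 11.5% of all tested genes rose, and 1 fell (RpS28b), where 6.65% fell. In tuSz[1] against w[1118] RpS23 rose, 1 of 52 where 9.98% of all tested genes rose. In tuSz[1] against hop[Tum] RpS28b rose, 1 of 52 where 5.52% rose. RpS23 and RpS28b had only 289 and 967 counts over the 9 libraries.

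Ratios of summed counts within a library do not depend on scaling. For every 100 counts of the 22 ribosomal protein genes with 1 transcript, the 17 proteasome genes had 29.3, 32.9 and 35.3 counts in w[1118], 14.4, 17.3 and 19.4 in hop[Tum] and 16.9, 16.99 and 10.8 in tuSz[1]. Both mutants lay below w[1118] in every library and overlapped each other. The summed CPM shows that the terms of this ratio moved unequally: ribosomal protein genes summed to 43621 ± 3204 CPM in w[1118], 81431 ± 16855 in hop[Tum] and 59723 ± 12388 in tuSz[1]. Per 100 counts of the 5 CCT genes with 1 transcript, the proteasome genes had 819 ± 245 counts in w[1118], 200 ± 66.2 in hop[Tum] and 266 ± 67.4 in tuSz[1] (SD, n = 3). Within the proteasome itself, the 8 core genes had 83.6 ± 13.0 counts per 100 counts of the 9 regulatory genes in w[1118], 84.8 ± 6.98 in hop[Tum] and 91.7 ± 2.51 in tuSz[1]. These balances overlapped among all 3 genotypes.

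**Figure D5:**
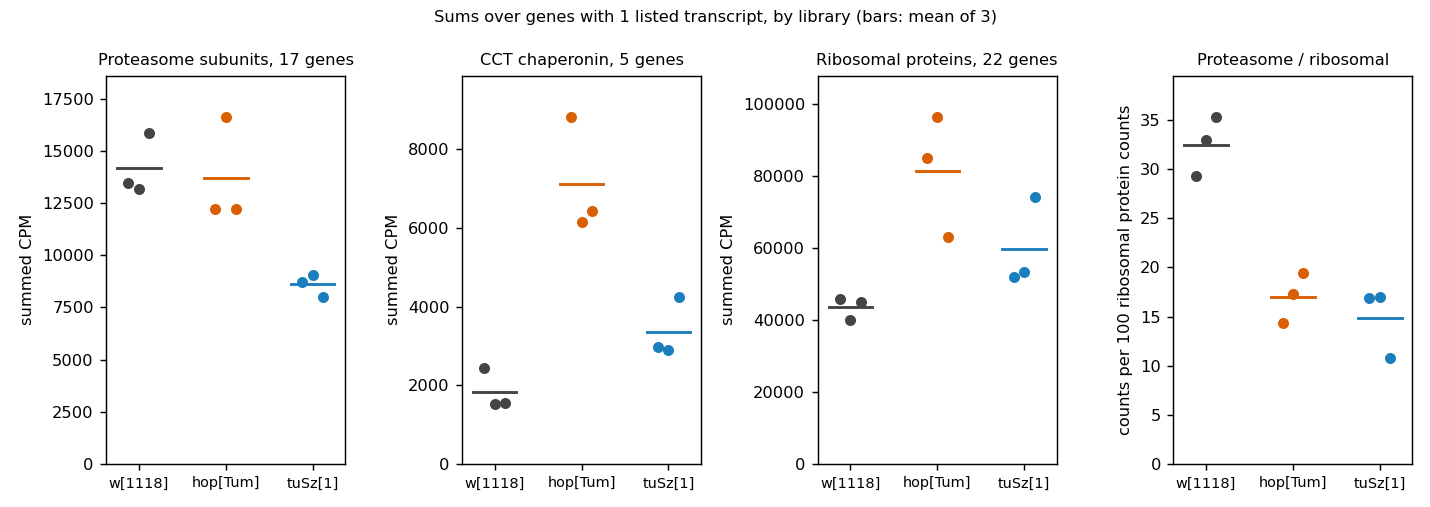
Summed CPM per library of genes with 1 listed transcript for proteasome subunits, the CCT chaperonin and ribosomal proteins, and proteasome counts per 100 ribosomal protein counts, by genotype with bars at the mean of 3 libraries. Proteasome sums are lowest in tuSz[1], CCT and ribosomal sums are highest on average in hop[Tum], and the ratio is highest in w[1118].

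Genes that assemble, replace or supply the proteasome were read beside the subunits. Pomp, the assembly chaperone of the core particle, was at 354, 358 and 393 CPM in w[1118], 284, 485 and 273 CPM in hop[Tum] and 191, 249 and 189 CPM in tuSz[1]. Its tuSz[1] libraries lay below all others, with a log2 fold change of -0.81 against w[1118] (SE 0.29) that did not pass the test (adjusted p = 0.0729, edgeR). Only 655 of the 1092 exonic bases of Pomp lie outside vari, a gene on the opposite strand, and the strand setting is not given. Sem1, a small lid subunit outside the naming rule, gave -0.66 (SE 0.29, adjusted p = 0.150, edgeR). With REG, the activator cap, and Uch-L5, a deubiquitinase, 4 of the 6 genes of this list were tested and edgeR called 0 in each comparison. Among all tested genes 18.1% were called in hop[Tum] against w[1118], 16.3% in tuSz[1] against w[1118] and 9.66% in tuSz[1] against hop[Tum], and a count of 0 among 4 genes is not read as a result about this list. At an unadjusted p under 0.05 there were 0, 2 and 1 of the 4 in that order, where 32.3%, 30.4% and 24.1% of all tested genes were. PI31 and Usp14 were listed at 0.

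Of 7 genes tied to the control of proteasome transcription 4 were tested. The edgeR test called 0 of the 4 in each comparison, where the shares of all tested genes were as above and the genes are again few, and 1 of the 4 had an unadjusted p under 0.05 in each. The factor cnc was at 17.1, 18.7 and 13.5 CPM in w[1118], 12.6, 13.3 and 14.6 CPM in hop[Tum] and 15.5, 14.3 and 19.1 CPM in tuSz[1], and the 3 groups overlapped. Its log2 fold change in tuSz[1] against w[1118] was -0.02 (SE 0.30). Keap1, its inhibitor, gave -0.85 (SE 0.55), crc, the fly ATF4, -0.53 (SE 0.37), and TER94, a segregase that extracts ubiquitinated proteins, -1.14 (SE 0.49, unadjusted p = 0.0371, adjusted p = 0.134, edgeR). All 4 have several listed transcripts and few counts. Of 10 genes for ubiquitin supply and delivery 6 were tested and edgeR called 0 in each comparison, against the same shares, with 1, 0 and 1 at an unadjusted p under 0.05 and a median of -0.06 in tuSz[1] against w[1118]. Ufd1, a partner of TER94 with 262 ± 34.5 CPM in w[1118] and 182 ± 7.18 in tuSz[1], gave -0.52 (SE 0.27, adjusted p = 0.215, edgeR), and p47, another, gave 0.10 (SE 0.29).

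The 16 paralogues with T or R in their names, many of which are used in the male germ line, were measured at far lower levels. Of the 16, 11 were tested. The 10 with 1 transcript summed to 200.2 ± 10.3 CPM in w[1118], 185 ± 57.6 in hop[Tum] and 193 ± 58.5 in tuSz[1]. Rpt6R was the most counted, at 58.4, 76.2 and 60.3 CPM in w[1118]. The medians of the 11 were -0.15, -0.07 and 0.18 in the 3 comparisons, in the order hop[Tum] against w[1118], tuSz[1] against w[1118] and tuSz[1] against hop[Tum]. Prosbeta4R2 was the 1 paralogue called of the 11, where 6.65% of all tested genes fell. It was lower in hop[Tum] against w[1118] (log2 fold change -4.17, SE 1.15, adjusted p = 0.0280, edgeR). It had 34, 43 and 25 counts in w[1118], 0, 0 and 4 in hop[Tum] and 17, 44 and 2 in tuSz[1], so the value rests on few counts and the tuSz[1] libraries spanned nearly the whole range.

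Markers of other tissues and stages were read for the same libraries. The 6 salivary glue genes, made at the end of larval life, summed to 54506 ± 6959 CPM in w[1118] and 13860 ± 2319 in hop[Tum]. In tuSz[1] they summed to 56049, 57462 and 33.1 CPM, so replicate 3 stood apart. No glue gene was called by edgeR in any comparison, and none had an unadjusted p under 0.05. For 5 of the 6 glue genes, however, every hop[Tum] library lay below every w[1118] library, where 18.6% of all tested genes did so. The fit took in all 9 libraries, tuSz[1] replicate 3 among them, and the part of that library in these p-values was not tested. The lack of calls is therefore not read as equal glue levels in hop[Tum] and w[1118]. The proteasome sum of tuSz[1] replicate 3, 7997 CPM, was the lowest of the 3 tuSz[1] libraries. Without it the median log2 fold change of the proteasome genes against w[1118] was -0.74, against -0.78 with it, and it was -0.62 against hop[Tum]. The larval serum protein genes Lsp1alpha and Lsp1gamma, made by the fat body, summed to 15919 ± 6320 CPM in w[1118], 46259 ± 29251 in hop[Tum] and 128110 ± 61206 in tuSz[1]. Lsp1beta, Lsp2, Fbp1 and Fbp2, also on the fat body list, have several listed transcripts and were not tested. Fbp1 was listed at 0, which is not read as absence of expression. Lsp1gamma rose against w[1118] in hop[Tum] (log2 fold change 2.16, adjusted p = 0.0188) and in tuSz[1] (3.25, adjusted p = 0.00281), whereas Lsp1alpha passed the edgeR test in no comparison. The lamellocyte genes PPO3 and ItgaPS4, which mark a blood cell made in response to wasp eggs and tumours, summed to 11.4 ± 2.08 CPM in w[1118], 16585 ± 985 in hop[Tum] and 2566 ± 97.9 in tuSz[1]. Another gene of that list, atilla, has 2 listed transcripts and was listed at 0, which is likewise not read as absence. The third lamellocyte list gene measured, mys, rose in hop[Tum] against w[1118] (log2 fold change 2.02, adjusted p = 0.00449, edgeR). In tuSz[1] against w[1118] mys gave 1.03 and did not pass (adjusted p = 0.0863, edgeR). It has 4 listed transcripts and had only 1033 counts over the 9 libraries. The male dosage compensation RNA lncRNA:roX1 fell in hop[Tum] against w[1118] (log2 fold change -2.57, adjusted p = 0.0137, edgeR), and lncRNA:roX2 was not called. Both have several listed transcripts, and they had only 511 and 114 counts over the 9 libraries. The part of tissue make-up, stage and sex ratio in the proteasome values was not tested.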

How the data were processed

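The deposited files hold raw read counts per RefSeq transcript, 34111 entries per library. Per the submitters' processing notes, FastQC 0.11.8, HISAT2 2.1.0, featureCounts 1.6.3 and the build dm6 were used. The strand setting is not given in the sources used here. Entries were matched to symbols through a RefSeq gene table of Release 6 plus ISO1 MT (33766 with version, 146 without, and 199 unmatched entries with 0.42% of counts) and summed per symbol. Coordinates and exon structures came from the Ensembl annotation of the same assembly.

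Groups came from the titles. The test was edgeR 4.0.16 in R 4.3.3 (TMM, default filter by group, robust quasi-likelihood fit of all 9 libraries), Benjamini-Hochberg adjusted over 9106 genes, threshold 0.05. TMM factors ran from 0.578 to 1.369. Standard errors are the absolute log2 fold change over the square root of F. The tests were tried on simulated counts. A count of 3 was worth 0.200 to 0.357 CPM, depending on the library. Named genes were members called anywhere, the cutting subunits, and the lowest and highest per length in each subcomplex. Rpn6, Prosalpha3 and Prosalpha7 were named after their values were seen. Members and gene lists were chosen with earlier results of these data known. Tables were made in pandas 2.3.3 with numpy 2.4.6, and plots in matplotlib 3.10.9, under Python 3.11.15.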

Additional observations from a re-analysis of the deposited data

How the results depend on the processing

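Besides the leave-one-out fits, 9 settings were tried for each comparison. In hop[Tum] against w[1118], 1 gene (Rpn6) was called with DESeq2 size factors, with a mean count of at least 50 and with the DESeq2 1.42.0 Wald test, and the median was -0.38 under total count scaling, -0.35 without the 50 most counted genes and -0.19 with no filter on low counts, which takes in 25 proteasome genes and puts the median of all genes at -0.27. In tuSz[1] against w[1118], the calls were 18 under total count scaling, 17 without the 50 most counted genes, 7 of 25 with no filter, 8 with a mean count of at least 50, 11 with the DESeq2 Wald test, 7 with only the 6 libraries compared, 6 with only genes of 1 listed transcript and 0 with the replicate block. The median was -1.55 under total count scaling, -1.29 without the 50 most counted genes, -0.94 with the 6 libraries and -0.92 with genes of 1 transcript. In tuSz[1] against hop[Tum], the calls were 10 under total count scaling, 3 without the 50 most counted genes, 0 of 25 with no filter, 2 with a mean count of at least 50, 6 with the DESeq2 Wald test, 0 with the 6 libraries, 2 with genes of 1 transcript and 0 with the replicate block, and the median was -1.04 under total count scaling and -0.83 without the 50 most counted genes. Having no filter adds low-count genes, and 6 libraries leave fewer samples. Why the calls differed between settings was not tested.

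Leaving out each library in turn gave 0 to 1, 0 to 6 and 0 to 1 calls in the 3 comparisons in that order, with medians of -0.11 to 0.10, -0.85 to -0.63 and -0.78 to -0.48. Without hop[Tum] replicate 2 the median of tuSz[1] against hop[Tum] was -0.48, and the calls of tuSz[1] against w[1118] were 6. The titles number the replicates but state no pairing. Same-numbered deviations correlated at 0.006, -0.090 and -0.203 on average for the 3 pairs of genotypes. Each average holds 3 values, and single values ran from -0.40 to 0.19. So few values cannot decide whether same-numbered samples were handled together. Under the replicate block the medians were -0.0030, -0.76 and -0.65. Of 918 refitted values of single genes, 809 stayed on the same side of the threshold (values that passed in neither fit could change sign), 78 newly passed it, 31 no longer passed it and 0 reversed a call. At 9552828 to 14517286 counts per library the 17 genes with 1 transcript had 2457 or more counts in each library, while the 14 genes at or near 0 could not be assessed.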
